A study of Mus musculus with 27 samples.

Results

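A set of 8 genes of Wnt feedback and Wnt-responsive transcription (Notum, Wif1, Nkd1, Axin2, Rnf43, Znrf3, Lef1 and Tcf7) was followed through intestinal adenomas of mice that carried an activated Braf allele or a Fosl1 transgene. They were taken by exact gene symbol, and all 8 were found among the 17440 genes of one deposited expression table (the transgene table) and among the 15176 genes of the other (the knockout table). All 8 also passed the filter on low values in both tables. A gene was tested if as many libraries as the smallest group held at least 1 unit of expression. Wif1 in both tables and Lef1 in the transgene table were below 1 unit in every control library. Notum and Nkd1 in both tables, and Lef1 in the knockout table, reached 1 unit in too few control libraries to pass on those alone. All of these passed through adenoma libraries and had little room to fall below control. That limits what they add to the counts against control. Of 27 RNA-seq libraries, 26 could be placed in a group, and 1 had labels that disagreed on its genotype.

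The Braf group was BrafV637E/+;Vil-CreERT2/+, in which tamoxifen-activated Cre, driven by the villin promoter of the intestinal epithelium, switches on the mouse counterpart of the human V600E allele. The Braf Fosl1 knockout group was BrafV637E/+;Vil-CreERT2/+;Fosl1lox/lox. By this label it lost Fosl1, which encodes the AP-1 subunit Fra-1, in the same cells. The Fosl1 transgene group was Tet-o-Fosl1;Vil-CreERT2/+ and received doxycycline in the chow at 2000 mg/kg from 1 week after tamoxifen. A transactivator for the Tet-o promoter is not named in the labels. Mice were treated at 6 weeks of age with 5 mg of tamoxifen by gavage on 2 days, and the controls, Brafmut mice by that protocol, were given sunflower oil instead. The control libraries came from normal tissue and the others from adenomas, so each comparison with control is also one of tumour with normal tissue, and doxycycline cannot be told apart from the transgene. The transgene table held 3 control, 3 Braf and 3 Fosl1 transgene libraries, and the knockout table held 6 control, 5 Braf and 6 Braf Fosl1 knockout libraries. The titles number adenomas by mouse and controls by tissue. Where separate animals are not named, as for the controls, p-values measure only the spread between these libraries.

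Wnt ligands bind Frizzled and Lrp receptors on the cell surface, which halts the destruction complex that degrades β-catenin. β-catenin then enters the nucleus and works with TCF/LEF proteins to turn on target genes, which keep stem and progenitor cells dividing in the intestinal crypt. Several of these targets encode inhibitors of the same pathway, a negative feedback, and they are widely used as readouts of Wnt activity in intestinal tumours.

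The 8 genes act at successive levels. Notum is a secreted enzyme that strips the lipid from Wnt ligands, and Wif1 is a secreted protein that binds Wnt ligands. At the membrane, Rnf43 and Znrf3 are related ubiquitin ligases that remove Frizzled receptors. In the cytoplasm, Nkd1 binds Dishevelled and Axin2 is a scaffold of the destruction complex. Lef1 and Tcf7 are HMG-box transcription factors that partner with β-catenin. On GRCm38, with GENCODE M21, Notum lies on chromosome 11 (120653788 to 120661175, minus strand), Axin2 on chromosome 11 (108920349 to 108950783, plus strand), Wif1 on chromosome 10 (121033960 to 121100650, plus strand) and Lef1 on chromosome 3 (131110471 to 131224356, plus strand).

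RefSeq promoter entries on GRCm38.p6 were matched by symbol for 6 of the 8 genes, with 11 entries in all, and the 250 bases before each start were searched on both strands. The TCF/LEF core CTTTGA was found in 1 of the 11 entries, against 13.8% of all 32851 promoter entries. It occurred 2 times, 180 and 120 bases before an internal start of Lef1. The AP-1 motif TGANTCA was in 0 of the 11 entries and in 6.75% of all promoters, and TGACGTCA was in 0 and in 1.55%. A match describes letters in this window only. The Lef1 entry with the core is shown with the matches in capitals (here TCAAAG, the reverse complement), beside that of Axin2, the widely used Wnt readout, which held none. The Lef1 stretch is chr3:131156044-131156293 and the Axin2 stretch is chr11:108920099-108920348, both on the plus strand.
Lef1: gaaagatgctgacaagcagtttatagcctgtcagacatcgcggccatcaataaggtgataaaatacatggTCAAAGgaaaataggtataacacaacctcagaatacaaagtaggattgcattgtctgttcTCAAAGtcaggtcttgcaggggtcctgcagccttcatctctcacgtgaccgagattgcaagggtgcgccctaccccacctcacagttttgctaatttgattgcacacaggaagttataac
Axin2: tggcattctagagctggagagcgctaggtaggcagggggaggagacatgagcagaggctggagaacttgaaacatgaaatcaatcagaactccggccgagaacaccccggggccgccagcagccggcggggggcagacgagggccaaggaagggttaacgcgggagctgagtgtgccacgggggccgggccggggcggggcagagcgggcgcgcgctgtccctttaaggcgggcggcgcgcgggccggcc

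Values of the transgene table are read counts scaled to library size (CPM), from libraries of 12418499 to 15484525 reads. Values of the knockout table are normalised counts rescaled to resemble CPM (nCPM), from libraries estimated at 4272164 to 7008722 reads. Levels were not compared across the tables. Fosl1 had no read in the 3 control libraries. It was at 4.57 ± 0.637 CPM in Braf and 3.54 ± 0.211 CPM in Fosl1 transgene adenomas (SD, n = 3 each). No Fosl1 value of the knockout table was at hand, so its loss there rests on the genotype label and was not tested. The median difference of all genes, adenoma against control, was itself 0.27 to 0.47 on the log2 scale (0.17 for transgene against Braf adenomas), and rescaling by TMM brought it to at most 0.07. No member's direction against control changed under that rescaling, although Wif1 then failed the filter in the knockout table.

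In Braf adenomas of the transgene table all 8 genes rose above control, and no Braf library overlapped a control library for any of them. By limma on log2(CPM + 1), with p adjusted over 15173 genes, 8 of 8 were higher, where 33.1% of all tested genes were higher. Every Braf library stood above every control library for 38.1% of all tested genes. The members' median difference was 3.12 on the log2(CPM + 1) scale, against 0.27 for all genes.

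The secreted inhibitors and Nkd1 were nearly silent in control tissue. Notum was at 1.07, 0.856 and 0.530 CPM in the control libraries and at 249, 123 and 216 CPM in the Braf libraries, a difference of 6.71 on the log2(CPM + 1) scale (SE 0.29, adjusted p = 1.2e-07). Nkd1 was at 1.22, 2.18 and 0.379 CPM in control and at 457, 183 and 346 CPM in Braf adenomas, a difference of 7.17 (SE 0.40, adjusted p = 1.5e-06 by limma). For both genes the lowest adenoma library was far above the highest control library.

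Wif1 behaved less evenly among the Braf adenomas. It had 2 reads in the 3 control libraries together (0.0715, 0.0778 and 0 CPM) and stood at 36.5, 3.22 and 5.23 CPM in the Braf libraries. Summed reads were 630 against 2, a ratio of 314 after division by library size (95% interval 86.4 to 2595, counting error only). Braf library 1 gave 519 of the 630 reads, and without it the ratio was 85.5 (95% interval 23.1 to 715) and the limma difference 2.29. Over all libraries the limma difference was 3.25 (SE 0.71, adjusted p = 0.0053), and the highest Braf library was 11.3 times the lowest. The call was lost without the 3 libraries of highest mitochondrial share, which left 1 control (log2 difference 3.21, adjusted p = 0.087).

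Axin2 and the ubiquitin ligases were already present in normal tissue and rose by smaller factors. Axin2 was at 43.9, 50.0 and 60.4 CPM in control and at 224, 395 and 236 CPM in Braf adenomas, a 5.55-fold difference of means (limma adjusted p = 0.00025). Rnf43 was at 49.3, 76.8 and 53.0 CPM in control and at 309, 381 and 267 CPM in Braf adenomas, 5.34-fold higher (limma adjusted p = 1.2e-05). Znrf3, its paralogue, went from 8.29, 11.1 and 11.4 CPM to 37.7, 29.2 and 25.9 CPM, 3.02-fold higher (limma adjusted p = 0.00077). Znrf3 thus had the smallest difference of the 8 on the log2(CPM + 1) scale, 1.50 (SE 0.26).

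Both transcription factors rose as well, Lef1 from near absence. Lef1 was at 0.0715, 0.0778 and 0.227 CPM in control, 5 reads in all, and at 10.8, 7.57 and 7.66 CPM in Braf adenomas (log2 difference 3.09, SE 0.24, limma adjusted p = 3.2e-06). Tcf7 was at 7.29, 6.38 and 7.65 CPM in control and at 91.1, 60.7 and 65.3 CPM in Braf adenomas, 10.2-fold higher (limma adjusted p = 1.1e-06). T cells also express Lef1 and Tcf7, and the summed level of the 11 T cell markers ran the other way, from 29.5 to 76.4 CPM in control and from 3.87 to 23.7 CPM in Braf adenomas. Of the 10 T cell markers tested, 5 fell and 0 rose, among them Cd8a by 3.87 and Cd3e by 1.88 on the log2 scale. None of the 11 was at 0 in any of these groups. In bulk tissue, fewer cells of a type and less RNA per cell cannot be told apart. The part of T cells in the levels of Lef1 and Tcf7 was not tested.

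Markers of stromal and myeloid cells rose in the same adenomas. In Braf against control, 5 of 5 tested smooth muscle markers were higher (summed level 46.7 to 178 CPM against 0.572 to 16.9 CPM), as were 5 of 6 endothelial markers (15.7 to 45.0 against 2.12 to 7.01 CPM). Of 9 macrophage and neutrophil markers 6 were higher (34.9 to 226 against 5.22 to 31.2 CPM), and S100a8 had no read in control. Fibroblast and telocyte markers summed to 192 to 431 CPM against 105 to 116 CPM. Of these 4 of 10 were higher, a count near the 33.1% of all tested genes that were higher. Paneth cell markers went mostly down, 4 of 6 lower and 1 higher. Epithelial markers summed to 20918 to 23273 CPM against 12706 to 14661 CPM, with 5 of 7 higher and 1 lower. The part of these cells in the rise of the 8 genes was not tested.

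**Figure D1:**
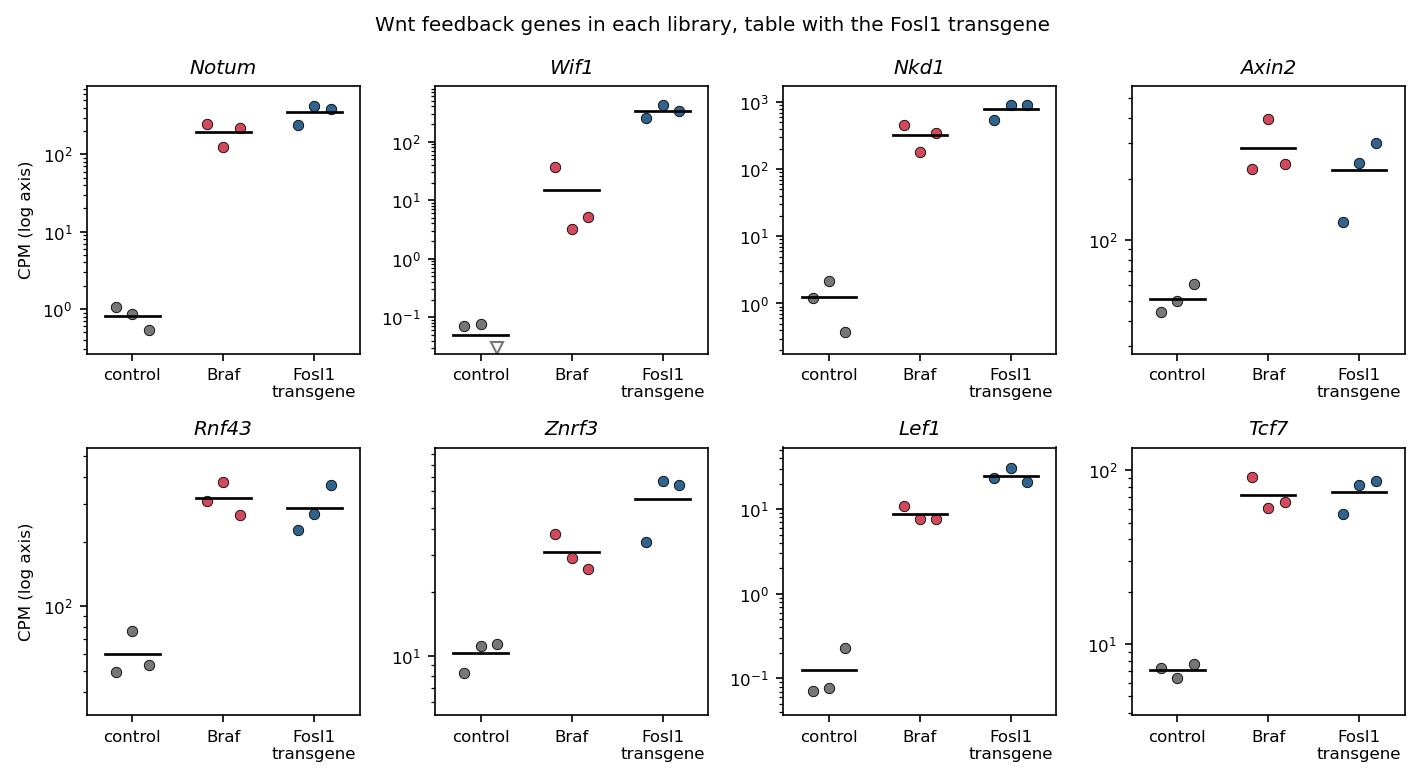
CPM of the 8 genes in each library of the transgene table, on log axes that differ between panels; points are libraries, lines are group means, and the open triangle is the control library without a Wif1 read. Adenoma libraries lie above all control libraries in each panel, and Wif1, Lef1 and Nkd1 are also separated between the adenoma groups.

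Fosl1 transgene adenomas showed the same 8 genes above control, again without overlap. By limma 8 of 8 were higher, where 46.7% of all tested genes were higher and 50.6% had every transgene library above every control library. The members' median difference was 3.86 on the log2(CPM + 1) scale, against 0.47 for all genes. This comparison shares its control libraries with the previous one. Nkd1 reached 543, 904 and 907 CPM (log2 difference from control 8.49, SE 0.40, limma adjusted p = 7.7e-07) and Notum 239.6, 422 and 383 CPM (7.55, SE 0.29, limma adjusted p = 6.5e-08). Axin2 had the smallest difference of the 8 here, 2.00 (SE 0.33, limma adjusted p = 0.00059), at 123, 239 and 300.0 CPM. Wif1 was at 249, 426 and 340.3 CPM, or 14672 reads against 2 in control, a ratio of 6695 (95% interval 1853 to 55290, counting error only). Against control every tested fibroblast and telocyte (10), smooth muscle (5), endothelial (6) and macrophage and neutrophil (9) marker was also higher in these adenomas, and their part was not tested.

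The adenoma groups differed from each other in some of the 8 genes, Wif1 most of all. Wif1 was 22.6-fold higher in Fosl1 transgene than in Braf adenomas by means, and its lowest transgene library, 249 CPM, stood well above the highest Braf library, 36.5 CPM. The limma difference was 5.06 on the log2(CPM + 1) scale (SE 0.71, adjusted p = 0.0029), with a 95% interval of 10.8-fold to 102-fold, and it passed in 18 of 18 alternatives. The size rests on Braf library 1, without which the fold of means was 80.1 and the limma difference 6.01. Lef1 was at 23.4, 30.3 and 20.7 CPM against 10.8, 7.57 and 7.66 CPM, 2.85-fold higher with no overlap (log2 difference 1.41, SE 0.24, limma adjusted p = 0.0035). Without the 3 libraries of highest mitochondrial share the Lef1 call was lost at a difference of much the same size (1.44, adjusted p = 0.052). Nkd1 was 2.39-fold higher without overlap, at the edge of the threshold (log2 difference 1.31, SE 0.40, limma adjusted p = 0.0498). It passed in 3 of 18 alternatives, and its adjusted p ranged from 0.020 to 0.16 over them. In all 3 of 8 members were higher and 0 lower, where 14.5% of all tested genes were higher and 4.72% lower, and the same 3 had every transgene library above every Braf library, as held for 27.9% of all genes.

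The other members overlapped between the adenoma groups. Notum was 1.78-fold higher by means in transgene adenomas (limma adjusted p = 0.065) and Znrf3 1.79-fold (limma adjusted p = 0.059). Both passed when Braf library 1 was left out (adjusted p = 0.033 and 0.044) or transgene library 1 (0.035 and 0.013), and Znrf3 also without the 3 libraries of highest mitochondrial share (0.045). Tcf7 was at 56.2, 81.9 and 87.3 CPM in transgene adenomas, close to its Braf values, with a log2 difference of 0.05 (95% interval -0.41 to 0.51) whose sign turned in 9 alternatives. Rnf43 was at 226, 269.8 and 365 CPM, a difference of -0.16 (95% interval -0.66 to 0.33), and Axin2 had a difference of -0.41 (95% interval -1.15 to 0.32). Neither Rnf43 nor Axin2 passed the test in any of 18 alternatives.

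The transgene adenomas also held more RNA of other cell types. Summed fibroblast and telocyte markers were at 866 to 1499 CPM against 192 to 431 CPM in Braf adenomas, and 9 of 10 markers were higher. Smooth muscle markers summed to 391 to 590 CPM against 46.7 to 178 CPM (4 of 5 tested markers higher), and endothelial markers to 149 to 203 CPM against 15.7 to 45.0 CPM (6 of 6 higher). Paneth cell markers summed to 1117 to 3834 CPM against 438 to 843 CPM, with 5 of 6 higher (1 of the 6, Mmp7, is also a listed Wnt target). Macrophage and neutrophil markers summed to 234 to 560 CPM against 34.9 to 226 CPM, with 2 of 9 higher (0 of 9 after TMM rescaling). T cell markers, of interest for Lef1, summed to 16.1 to 34.7 CPM against 3.87 to 23.7 CPM, with overlap, and 1 of 10 was higher. Of 7 epithelial markers 3 were lower, all keratins (Krt19, Krt18 and Krt8), and 5 of 7 were lower after TMM or median-ratio rescaling. No marker of these lists was without a read in either adenoma group. Their part in the differences of Wif1, Lef1 and Nkd1 was not tested.

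**Figure D2:**
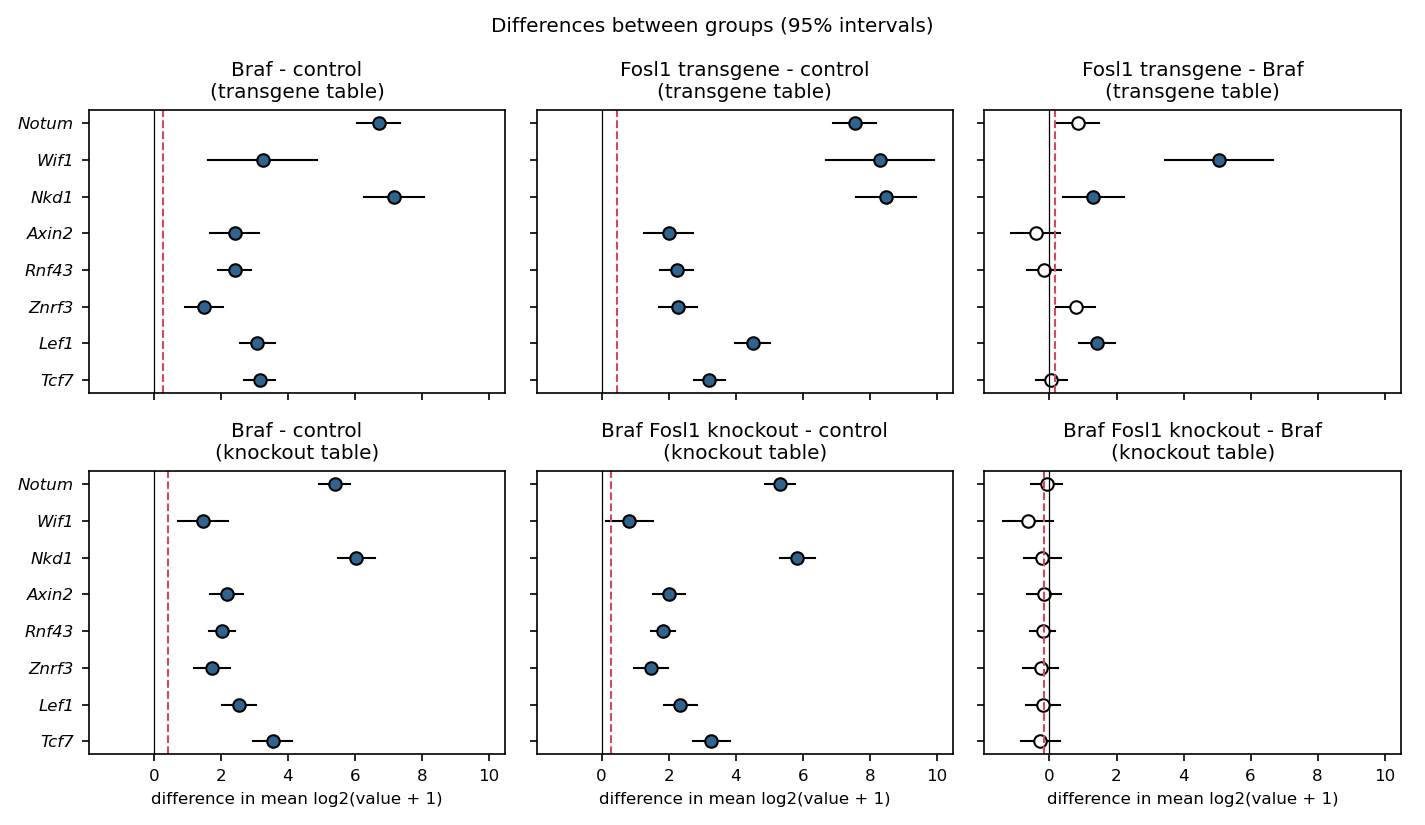
Difference in mean log2(value + 1) for the 8 genes in the 6 comparisons, with 95% intervals; filled points had a limma adjusted p below 0.05, and the dashed line is the median of all tested genes. The points against control lie right of the dashed line in every panel. Those of knockout against Braf lie left of it except for Notum, with intervals that span it and none filled.

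Levels per kilobase of exon allow the genes to be ranked within a group. In Braf adenomas of the transgene table Notum, at 81.5 ± 27.2 CPM per kb (SD, n = 3), and Nkd1, at 72.0 ± 30.2, came first and did not differ beyond their spread. Axin2 followed at 51.8 ± 17.3 and Rnf43 at 48.6 ± 8.76, again within their spread, then Tcf7 at 27.6 ± 6.23, Wif1 at 6.17 ± 7.68, Znrf3 at 3.92 ± 0.776 and Lef1 at 0.988 ± 0.211 CPM per kb. In Fosl1 transgene adenomas Wif1, at 139 ± 36.5 CPM per kb, joined Nkd1 (172 ± 45.9) and Notum (145 ± 39.9) at the top, the 3 within their spread. Control tissue had another order, with Axin2 at 9.34 ± 1.51 and Rnf43 at 9.10 ± 2.28 CPM per kb first, and Notum, Nkd1, Wif1 and Lef1 last at no more than 0.340. Lef1 was the lowest of the 8 per length in both adenoma groups, while in control it stood at 0.0143 ± 0.010 beside Wif1 at 0.0205 ± 0.0178 CPM per kb, within their spread on 5 and 2 reads. In Braf adenomas of the knockout table Notum, at 40.0 ± 11.1 nCPM per kb (SD, n = 5), Rnf43, at 33.1 ± 8.85, Axin2, at 29.0 ± 10.7, and Nkd1, at 25.2 ± 6.68, lay within each other's spread as neighbours.

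**Figure D3:**
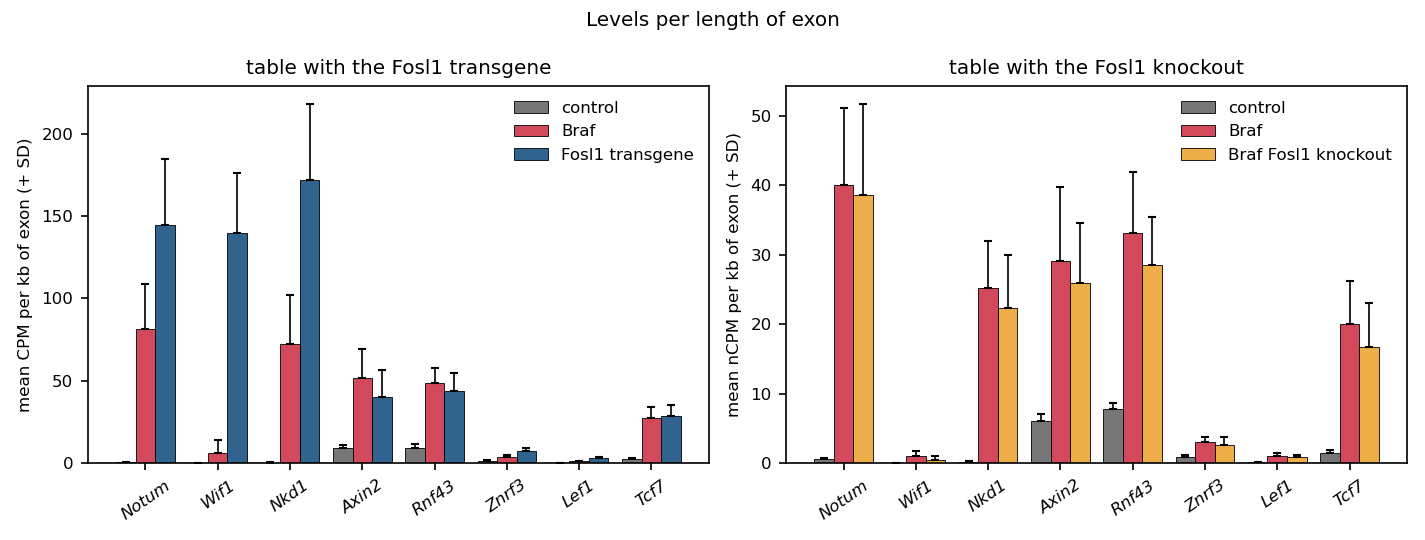
Mean level per kilobase of exon (bars, with SD) of the 8 genes by group, CPM per kb on the left and nCPM per kb on the right. Axin2 and Rnf43 lead in control tissue, Notum and Nkd1 are the highest bars of the transgene-table adenomas, and Wif1 is high in Fosl1 transgene adenomas alone among the groups drawn.

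The knockout table gave the same picture for Braf adenomas against control, in other libraries. By limma 8 of 8 were higher, where 45.3% of all 14806 tested genes were higher, with a members' median of 2.36 on the log2(nCPM + 1) scale against 0.42 for all genes. Braf and control libraries did not overlap for any member, as held upward for 32.3% of all genes. Notum ranged over 0.915, 1.11 and 2.07 nCPM (lowest, median and highest of 6) in control, and was at 68.5, 92.8, 107, 77.4 and 136 nCPM in Braf libraries 4 to 8 (log2 difference 5.40, SE 0.22, limma adjusted p = 1.6e-13). Nkd1 ranged over 0.242, 0.540 and 1.92 nCPM in control and was at 73.3, 124, 119.7, 102 and 156 nCPM in Braf adenomas (6.04, SE 0.26, limma adjusted p = 3.6e-13). These were the members with the largest differences in this comparison.

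The remaining members rose by 1.47 to 3.55 on the log2(nCPM + 1) scale. Tcf7 ranged over 1.21, 3.76 and 5.17 nCPM in control and was at 45.4, 48.7, 58.6, 33.1 and 76.4 nCPM in Braf adenomas, 14.5-fold higher by means (limma adjusted p = 2.1e-09). Lef1 was at 0.158, 0.758 and 1.20 nCPM (lowest, median, highest) in control and at 8.57, 14.3, 8.16, 5.40 and 8.57 nCPM in Braf adenomas, 13.1-fold higher (limma adjusted p = 4.4e-08). Here too T cell markers ran the other way in most cases, 5 of 7 tested falling and 2 rising, and their sum was 18.2 to 58.3 nCPM in control and 8.69 to 21.2 nCPM in Braf adenomas. Wif1 was low, at 2.77, 1.61, 1.12, 5.56 and 0.404 nCPM in Braf adenomas (0.946 ± 0.833 nCPM per kb, beside 1.02 ± 0.369 for Lef1, SD, n = 5), while 5 of 6 control libraries were below 0.0793 nCPM, the level read as no count. Its difference was 1.47 (SE 0.35, limma adjusted p = 0.0013). Stromal and myeloid markers rose here too, with 8 of 8 fibroblast and telocyte, 5 of 6 smooth muscle, 6 of 6 endothelial and 7 of 7 macrophage and neutrophil markers higher. Smooth muscle markers summed to 75.3 to 850.4 nCPM against 0.643 to 4.08 nCPM, fibroblast and telocyte markers to 273 to 809 against 63.1 to 114 nCPM, and endothelial markers to 15.5 to 84.7 against 2.16 to 5.12 nCPM. The part of these cells and of T cells was not tested.

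The Fosl1 knockout genotype changed none of the 8 genes in Braf adenomas by the test. By limma 0 of 8 differed between Braf Fosl1 knockout and Braf adenomas, where 0.419% of all tested genes were called. At an unadjusted p below 0.05 it was 0 of 8 too, against 14.5% of all tested genes. All 8 differences were below 0, from -0.64 for Wif1 to -0.08 for Notum, with a median of -0.21 against -0.15 for all genes, and the groups overlapped for each (1.22% of all genes had no overlap). The 95% intervals ran from 0.385-fold to 1.31-fold over the 8 genes. Signs turned above 0 for Axin2 and Notum under some alternatives, TMM rescaling among them.

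The values with and without the knockout lay in overlapping ranges. Notum was at 55.9, 84.9 and 149.7 nCPM (lowest, median and highest of 6) with the knockout, Nkd1 at 50.7, 102 and 149 nCPM, and Axin2 at 87.9, 139.6 and 203 nCPM. Their means relative to Braf were 0.962, 0.884 and 0.891. Tcf7 was at 24.3, 42.3 and 72.4 nCPM and Lef1 at 5.67, 7.26 and 11.3 nCPM. Their means were 0.837 and 0.856 of those in Braf adenomas. The lowest Nkd1, Tcf7 and Lef1 values came from knockout library 2, which had the lowest estimated depth, 4272164 reads. It had 28.5% of its signal on mitochondrial genes, against 3.51% to 8.61% in Braf and 7.45% to 23.4% in control libraries. Wif1 was at 0.148, 0.597 and 3.93 nCPM, and its mean was 0.482 of that in Braf adenomas, with an interval of 0.385-fold to 1.07-fold on the scale of nCPM + 1. That ratio was 0.235 without knockout library 3 and 0.748 without Braf library 7.

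Against control, the knockout adenomas kept all 8 genes higher by limma, where 37.4% of all tested genes were higher. Ranges did not overlap for 7 of 8, as held upward for 21% of all genes. Notum was 72.7-fold and Nkd1 129.6-fold higher by means, and Tcf7 12.1-fold. Of the markers of other cells, 7 of 8 fibroblast and telocyte, 6 of 6 smooth muscle, 5 of 6 endothelial and 6 of 7 macrophage and neutrophil genes were higher as well, and 5 of 7 T cell markers lower; their part was not tested. Wif1 was the exception, since knockout library 1 at 0.148 nCPM lay below control library 6 at 0.156 nCPM. These values were 0.931 and 0.987 normalised counts, each about 1 read by the estimated depth. The Wif1 call (log2 difference 0.83, SE 0.34, limma adjusted p = 0.042) passed in 7 of 19 alternatives, with an adjusted p between 0.0068 and 0.19. It was lost, for instance, without any 1 of the control libraries (0.053 to 0.064) or without knockout library 3 (0.12).

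**Figure D4:**
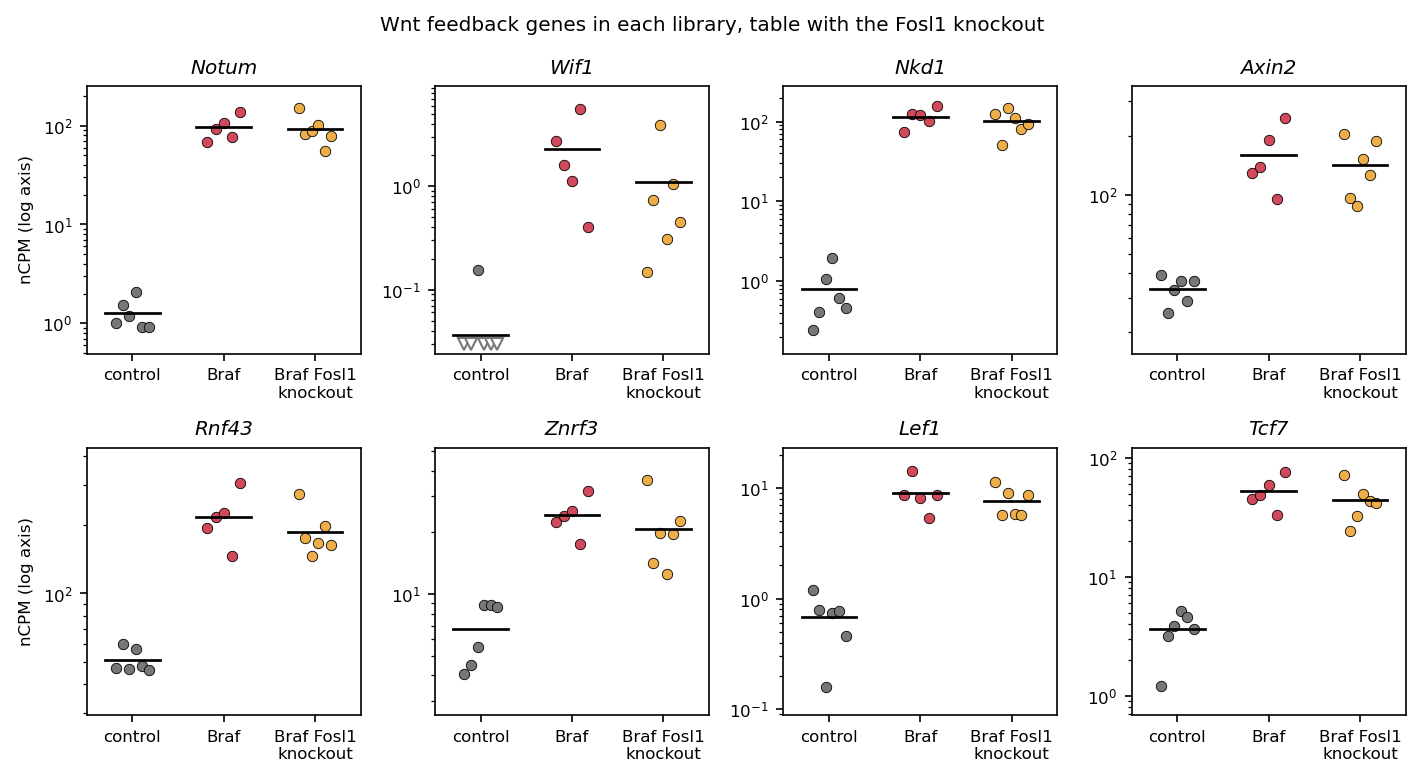
nCPM of the 8 genes in each library of the knockout table, on log axes that differ between panels; points are libraries, lines are means, and open triangles are libraries below 0.03 nCPM, drawn at that level. Braf and Braf Fosl1 knockout libraries overlap in each panel, and Wif1 spreads over more than a decade in both.

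Relative levels of 3 pairs of members within a library were compared in 6 contrasts with exact permutation tests (two-sided, difference of log2(value + 1), 18 tests). The added 1 weighs on genes near or below 1 unit, such as Lef1 and Notum in control, so these values depend on it. Notum relative to Axin2 was -0.69 ± 0.26 in Braf adenomas (SD, n = 5) and -3.91 ± 0.38 in control (n = 6) of the knockout table, without overlap (exact p = 0.0043, adjusted p = 0.039). With the knockout the ratio was -0.61 ± 0.50 (n = 6), also clear of control (exact p = 0.0022, adjusted p = 0.039). No other ratio passed. Across the omission of single libraries the differences stayed between 3.12 and 3.43, still without overlap. Both calls missed the threshold without any 1 control library, and the Braf call without any 1 Braf library. For the Braf call the smallest exact p is then 0.0079 (5 against 5) or 0.0095 (4 against 6). For the knockout call it is 0.0043 (5 against 6). Both calls share an adjustment over 18 tests, so the smaller groups limit them together. The ratio also rose without overlap in the transgene table, by 4.30 in Braf and 5.56 in transgene adenomas, where 3 against 3 cannot give an exact p below 0.1.

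The other pairs were set apart between the adenoma groups of the transgene table, in a design too small to pass. Lef1 relative to Tcf7 was -1.55 ± 0.42 in Fosl1 transgene adenomas and -2.92 ± 0.06 in Braf adenomas (n = 3 each), a difference of 1.36 without overlap (exact p = 0.1, the smallest possible, adjusted p = 0.16). Rnf43 relative to Znrf3 was 2.38 ± 0.35 in transgene and 3.33 ± 0.33 in Braf adenomas, a difference of -0.94 without overlap and with the same exact p.

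The 8 genes also varied between libraries of one group. Among Braf adenomas of the knockout table, library 8 was the highest in 6 members and the lowest in Wif1, while library 7 was the highest in Wif1 and the lowest in 5 others. Knockout library 1 was likewise the highest in 6 members and the lowest in Wif1. Over the 11 adenoma libraries, with group means subtracted, Wif1 against the mean of the other 7 gave r = -0.66 (permutation p = 0.044, adjusted p = 0.073 over 8 genes) and rho = -0.81 (permutation p = 0.0085, adjusted p = 0.034). Without the 2 libraries farthest from the median r was -0.48. It was -0.99 within the 5 Braf and -0.38 within the 6 knockout libraries. The lowest Wif1 values were near the limit of depth. They were 2.55 normalised counts in Braf library 8 and 0.931, 1.95 and 2.83 in knockout libraries 1, 5 and 7. In these libraries 1 read was estimated at 0.926 to 1.01 normalised counts. The other members had r from 0.51 (Axin2, permutation p = 0.12, adjusted p = 0.12) to 0.81 (Znrf3, permutation p = 0.010, adjusted p = 0.073) against the rest, and 0 of 8 passed by Pearson's r. By rank Znrf3 passed as well (rho = 0.83, permutation p = 0.0053, adjusted p = 0.034). Without the 2 farthest libraries r was 0.22 for Axin2, 0.39 for Tcf7 (0.74 with them) and 0.60 for Znrf3.

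The inverse course of Wif1 was not seen in the transgene table. There, over 6 adenoma libraries, Wif1 against the other 7 gave r = 0.63 (permutation p = 0.056, adjusted p = 0.15) and rho = 0.66 (permutation p = 0.11, adjusted p = 0.18). The other members ran from r = 0.097 (Axin2) and 0.23 (Rnf43) to 0.99 (Tcf7, permutation p = 0.054), and none passed (lowest adjusted p = 0.15). Braf library 1 held the highest Wif1 value of its group together with the highest of 5 other members. Transgene library 1 was the lowest of its group in 7 of 8 members, Wif1 included, and had 4.67% of its reads on mitochondrial genes, against 2.83% and 3.27% in the other transgene libraries.

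**Figure D5:**
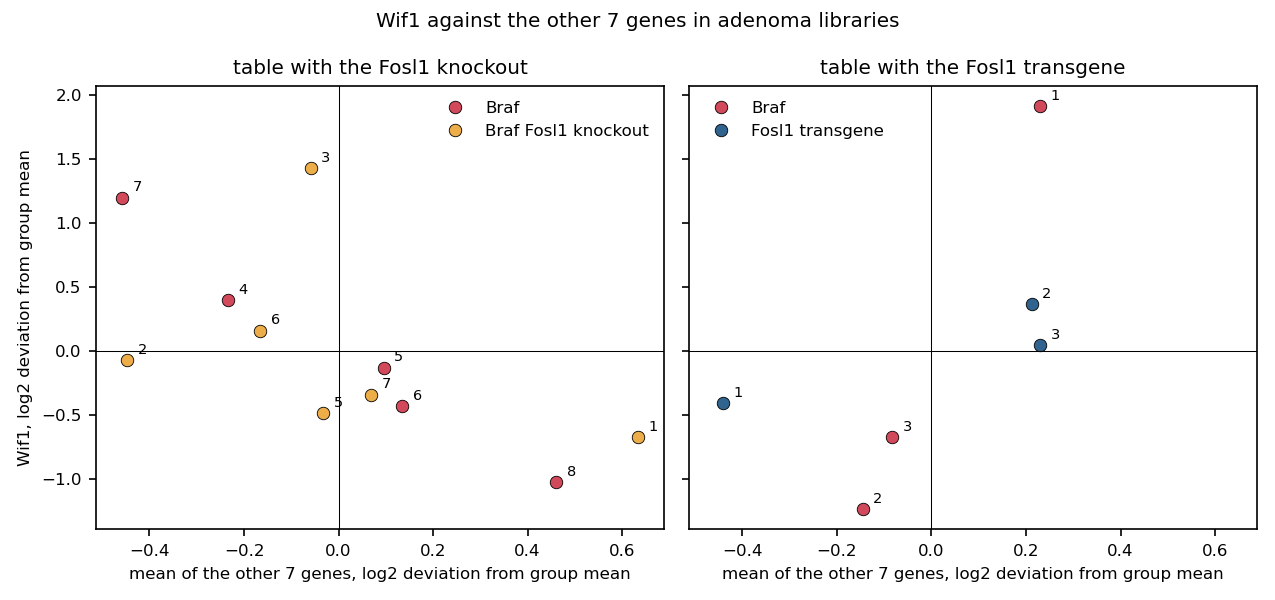
Deviation of Wif1 from its group mean (log2) against the mean deviation of the other 7 genes in adenoma libraries, numbered by replicate, in the knockout table (left) and the transgene table (right). On the left Braf 7 and 8 and knockout 1 lie along a fall from upper left to lower right, while knockout 3 has the highest Wif1 deviation (1.43) with the other genes near 0 (-0.06). On the right the points rise.

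The genes most like the members were sought among 11648 genes over the 17 grouped libraries of the knockout table, by correlation with the mean of the 8 after subtraction of group means. They were Cbfa2t2 (r = 0.90), Pdp1 (0.89), Snapin (0.89), Ctbp1 (0.86) and Wdr13 (0.86). In the 9 libraries of the transgene table the same genes gave 0.27, 0.63, 0.34, 0.20 and 0.065. The libraries share tissue makeup and scaling, and these values are a description.

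The other genes listed as epithelial Wnt targets rose almost as uniformly as the 8 members, while the remaining genes of the pathway were mixed. Of 15 other epithelial Wnt targets, 13 rose and 0 fell in Braf adenomas of the transgene table, 14 and 0 in Fosl1 transgene adenomas, and 14 and 0 in Braf adenomas of the knockout table. Tnfrsf19, a receptor of the TNF family, rose by 4.62, the crypt transcription factor Sox9 by 2.97 and the receptor Ephb3 by 3.38 on the log2 scale in the first of these. Receptors went both ways, with 8 of 14 Frizzled, Lrp and related receptors higher and 2 lower in that comparison, Fzd5 by -2.02 and Fzd4 by -1.33. Of the other secreted antagonists, Dkk2 rose by 3.80 and Dkk3 by 2.71, while Sfrp5 fell by 2.93. In the cytoplasmic relay and destruction complex 6 of 16 rose and 3 fell, with the kinase gene Csnk1e up by 2.46, and the balance turned to 3 higher and 4 lower under TMM or median-ratio rescaling. Among nuclear effectors 4 of 12 rose and 2 fell, the corepressor gene Tle4 by 2.25. Both lists lay near the shares of all tested genes, 33.1% higher and 18% lower. Porcn, the enzyme that attaches lipid to Wnt ligands and so acts opposite to Notum, rose by 3.88 in the list of ligands, 5 of whose 13 tested genes rose and 1 fell.

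Between the adenoma groups of the transgene table, R-spondin receptors differed as well. R-spondins shield Frizzled from Rnf43 and Znrf3, and 3 of 5 tested genes of that list were higher in Fosl1 transgene adenomas. Lgr5, the crypt stem cell marker, was at 85.4 ± 10.5 CPM against 4.89 ± 6.35 CPM in Braf adenomas (SD, n = 3, log2 difference 4.41, limma adjusted p = 0.0025), and Lgr4 at 209 ± 40.9 against 90.8 ± 4.38 CPM (1.18, limma adjusted p = 0.0025). The target list had 3 of 15 higher and 2 lower, where 14.5% and 4.72% of all tested genes were, and it turned to 2 higher and 4 lower under TMM or median-ratio rescaling. In it Prox1, a homeobox factor, was at 214 ± 68.3 against 3.72 ± 4.70 CPM (5.99, limma adjusted p = 0.00086), and the stem cell factor Ascl2 at 41.5 ± 6.24 against 67.5 ± 15.3 CPM (-0.67, limma adjusted p = 0.048). Porcn was lower, at 14.2 ± 5.56 against 82.1 ± 16.8 CPM (-2.49, limma adjusted p = 0.00047), as was the ligand gene Wnt7b (-1.37), while Wnt5a was higher (3.15). Between knockout and Braf adenomas no gene of any of these Wnt lists was called by limma, where only 0.419% of all tested genes were.

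The authors' deposited table of genes more than 2-fold higher in Braf adenomas than in control holds 7 of the 8 members, all but Wif1. It has 3290 symbols, beside 15176 genes in the knockout table, and is labelled p below 0.01 with the test not named. The authors' deposited table of 210 genes that differ by more than 2-fold between Braf and knockout holds 0 of the 8. Beside 15176 genes, a list that short would seldom hold any of 8 genes, so this says little about the members.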

How the data were processed

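RNA-seq libraries were made with TruSeq RNA v2 or a stranded ribosomal depletion kit, per the labels' protocols, which do not say which library had which. The submitters' processing notes name fastp, STAR, limma and GRCm38. Versions, and how reads were counted and by which strand, are not given in the sources used here. The transgene table was deposited in CPM, according to its header (per the file headers). Each value above 0 was a whole number of reads within 0.02, so read totals were recovered (100% whole). The deposited values of the knockout table are normalised counts, a signal on a common library size of 6307850 on average. They were multiplied by 0.159 to give nCPM, and depth there is an estimate from the spacing of low values. Values below 0.5 normalised counts were read as no count. The authors' deposited lists of genes past a fold threshold were read for membership only. Another 12 columns of per-sample values in the transgene table were not used here.

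On log2(value + 1), limma 3.58.1 (trend and robust) in R 4.3.3 fitted the 3 groups of a table, with two-sided tests and Benjamini-Hochberg adjustment over all tested genes at a threshold of 0.05. The fit was tested on simulated data. Each adjusted p of a single gene comes from limma. Errors are SD between libraries and intervals are 95%. Intervals of read ratios cover counting error only. Alternatives were pseudocounts of 0.25 and 5, filters, rescaling, array weights, a replicate block, single libraries left out, and edgeR 4.0.16 and DESeq2 1.42.0 on recovered reads. The members, lists and tests were chosen with earlier results of these data known. All 8 members are named, and of each other list up to 4 genes with the smallest adjusted p and those against their list's direction, with some of these left out for brevity. The edgeR and DESeq2 counts of all genes called higher and lower in Braf adenomas against control, transgene table, were 3918 and 3725, and 4199 and 3949.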

Additional observations from a re-analysis of the deposited data

Results flagged for a closer look

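In 2 of 24 groups of 4 to 10 libraries examined, 1 library lay far from the others, and chance flags about 1 in 20 groups. Both concern Wif1 in the knockout table. Knockout library 3 was at 3.93 nCPM, where the next highest of its group was at 1.05 nCPM. Control library 6 was at 0.156 nCPM, where the next highest control was at 0.0292 nCPM, below the level read as no count.

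The library whose labels disagree on its genotype entered no comparison, and all 8 genes stood above the highest control library in it. Notum was at 109 nCPM and Nkd1 at 137 nCPM. Axin2 was at 229.5 nCPM, Rnf43 at 265 nCPM and Znrf3 at 37.9 nCPM. Wif1 was at 1.13 nCPM, Lef1 at 15.3 nCPM and Tcf7 at 72.0 nCPM. Its Lef1 and Znrf3 values were also above those of every grouped adenoma library of that table.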

How the results depend on the processing

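The members' counts against control stayed at 8 of 8 in the transgene table, except for 7 in Braf adenomas without the 3 libraries of highest mitochondrial share, where Wif1 was lost. In the knockout table Wif1 failed the filter under TMM, median-ratio rescaling and a filter at 5, which left 7 of 7, and its knockout call was lost in most others, so the leave-one-out count of knockout against control ran from 7 to 8. Transgene against Braf gave 2 to 5 of 8 when single libraries were left out, with 5 without Braf library 1 or transgene library 1. Knockout against Braf gave 0 throughout. Among the 18 ratio tests, 2 passed, 6 at a pseudocount of 5, and 0 to 2 without single libraries.

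Tcf7, transgene against Braf, turned to -0.13 (TMM), -0.14 (median ratio), -0.10 (array weights), -0.12 (edgeR) and -0.14 (DESeq2), and ran from -0.068 to 0.24 without single libraries. Axin2, knockout against Braf, turned to 0.0060 (TMM), 0.032 (median ratio) and 0.23 (replicate block), and ran from -0.33 to 0.014 without single libraries. Notum in that comparison turned to 0.087 (TMM) and 0.11 (median ratio), and ran from -0.23 to 0.057. None of these passed. Of the log2 ratios, Lef1 to Tcf7 turned to 1.29 at a pseudocount of 0.25 (Braf against control) and to -0.18 at a pseudocount of 5 (transgene against control), and ran from -0.056 to 0.27 for knockout against Braf without single libraries. Rnf43 to Znrf3, transgene against control, turned to 0.23 at a pseudocount of 5 and ran from -0.18 to 0.16, and for knockout against Braf it ran from -0.036 to 0.13. Notum to Axin2, knockout against Braf, ran from -0.042 to 0.21. The cause was not tested.

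Median correlations of same-numbered libraries were 0.019 (transgene table) and 0.044 (knockout table), against -0.024 and -0.016 for different numbers. With 9 and 10 same-numbered pairs, these values cannot show whether replicate numbers pair libraries. With the replicate block Nkd1, transgene against Braf, had an adjusted p of 0.099 by limma and Wif1, knockout against control, 0.19. The block called 1 gene higher and 0 lower for knockout against Braf, where 7 and 55 were called without it. Without Braf 4 it was 8 and 127, without Braf 7 14 and 117, and without Braf 8 4 and 12. For transgene against Braf, 2202 genes were higher and 716 lower, against 991 and 379 without transgene 3 and 437 and 137 without the 3 libraries of highest mitochondrial share. TMM rescaling moved the split for Braf against control from 5020 higher and 2731 lower to 3786 and 3819 (transgene table), and from 6712 and 2405 to 4260 and 4361 (knockout table). Wif1 in control tissue of the transgene table is limited by depth, with 2 reads in all. The lowest Wif1 values of the knockout-table adenomas are limited by depth too.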
